A study of Rattus norvegicus with 6 samples.

Results

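Translation initiation factors are the proteins that bring a messenger RNA, the initiator methionyl-tRNA and the ribosomal subunits together at the start codon. The data describe 49 rat genes of this family in replicating and quiescent pancreatic β-cells. They were chosen by a rule on names, set with earlier results of these data known. Every non-control probe whose gene name on the array begins with Eif and a digit from 1 to 6 was taken, except the eIF2 kinases. This gave 76 probes on 241 spots, out of 45598 probes and 17980 named genes. Of the 49 genes, 48 code for protein and 1, *Eif6-ps1*, is a pseudogene.

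The islets came from male Wistar rats and were cultured with EdU, a thymidine analogue that marks cells which copy their DNA. Islet cells were fixed, permeabilized and sorted by size, granularity and the zinc dye Newport Green for β-cells, and by EdU for replicating (EdU-positive) and quiescent (EdU-negative) cells. No genotype or drug separated the groups, and the quiescent cells had been exposed to EdU as well. Each of 3 islet preparations pooled 4 rats and gave 1 array of replicating and 1 array of quiescent β-cells, 6 single-colour Agilent arrays in all, so that each group had 3 arrays paired by preparation. Values are normalized log2 intensities as deposited, a log2 ratio is replicating over quiescent, and each gene is represented by its brightest probe over the 6 arrays.

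Initiation in mammals starts when eIF2, bound to GTP and the initiator tRNA, joins eIF1, eIF1A, eIF3 and eIF5 on the small ribosomal subunit. The cap-binding protein eIF4E, the scaffold eIF4G and the helicase eIF4A recruit the capped mRNA, and 4E-binding proteins, when not phosphorylated by mTORC1, hold eIF4E away from eIF4G. The exchange factor eIF2B recharges eIF2 with GTP, a step that phosphorylation of eIF2 by stress kinases blocks. β-cells depend on this control because insulin synthesis is regulated by glucose largely at translation, and loss of the eIF2 kinase PERK (*Eif2ak3*) causes neonatal diabetes.

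In the fit with limma, 5 of the 49 genes were higher in replicating β-cells at an unadjusted p no larger than 0.05, 0 were lower and 44 did not pass. The 5 were *Eif3l* and *Eif3h* of the eIF3 complex, *Eif1b*, *Eif2b4* and *Eif4e2*. This was 10.2% of the family, beside 6.59% of all named genes called higher by the same rule and 2.99% called lower. With a log2 ratio of at least 1 as well, 4 of the 49 genes (8.16%) passed, against 5.88% of all named genes. After Benjamini-Hochberg adjustment over all probes in limma 0 of the 49 passed an adjusted p of 0.05, as did 0% of all probes, 9.6% of which passed the unadjusted p in either direction, and the smallest adjusted p in the family was 0.475. The number of calls in the family was therefore not far from that among genes in general.

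The ratios of the family as a whole lay above 0 more often than those of other genes. The log2 ratio was above 0 for 39 of the 49 genes (79.6%) and for 51.4% of all named genes. The median was 0.55 in the family and 0.02 over all named genes. These medians are descriptions with no test. Bright genes in general lay higher: among the 4495 brightest named genes, which included 30 of the 49, 62.9% lay above 0 with a median of 0.22, against a median of 0.45 for those 30. Under the other background offset and scalings tried, between 33 and 39 genes of the family lay above 0, with medians between 0.23 and 0.61. In preparations 1, 2 and 3 the family's median was 0.46, 1.21 and -0.24, and that of all named genes was 0.11, 0.10 and -0.05. The ratio was above 0 for 44 genes in preparation 1, for 38 of 48 in preparation 2 and for 17 in preparation 3. The commonest pattern, in 23 genes, was a higher value in preparations 1 and 2 and a lower value in preparation 3. Without preparation 2 the family's median was 0.12, and without preparation 3 it was 0.94.

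**Figure D1:**
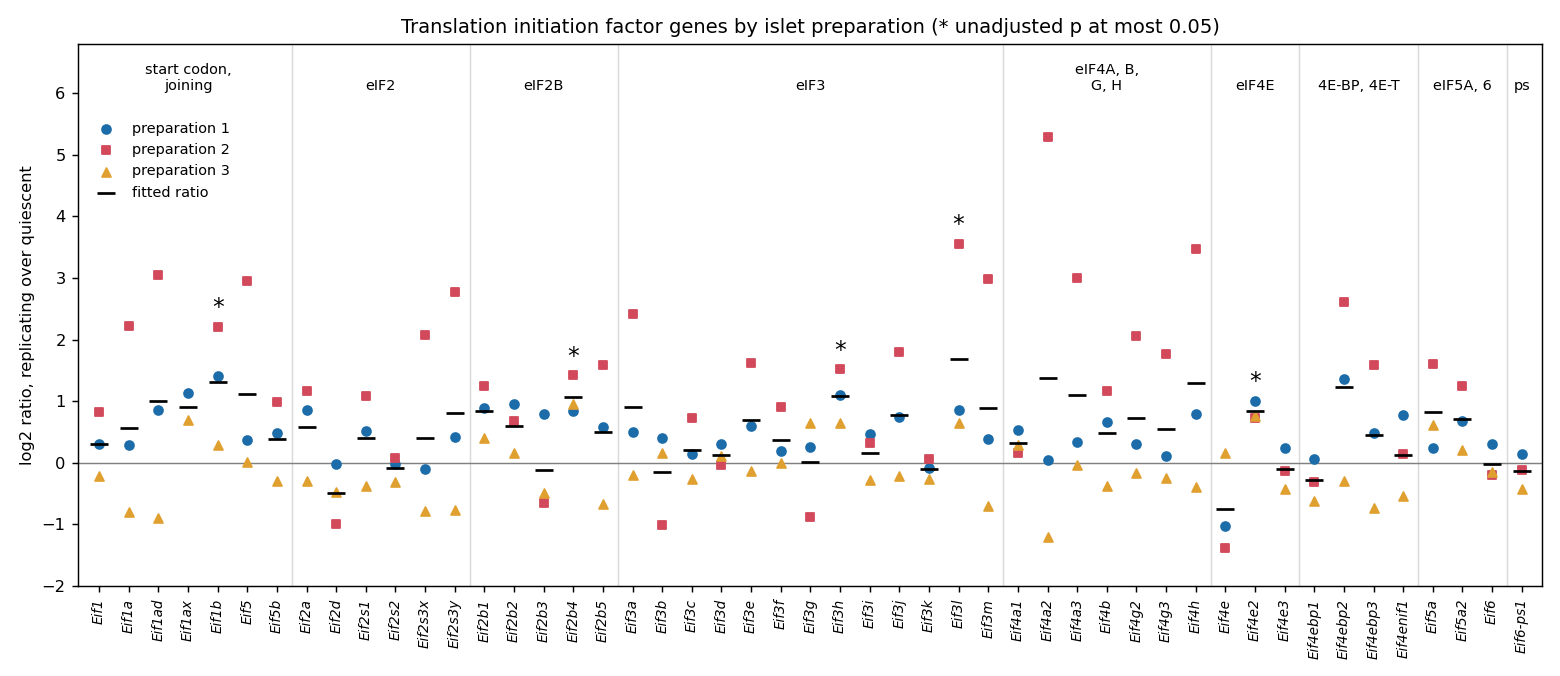
Log2 ratio of replicating over quiescent β-cells (vertical axis) for the 49 initiation factor genes, grouped by role (ps, pseudogene), in each of 3 islet preparations (symbols) and as fitted by limma (black bars); stars mark the 5 genes with an unadjusted p of at most 0.05. The squares of preparation 2 reach 5.29 for *Eif4a2*, and in preparation 3 only 17 of the 49 triangles lie above 0.

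The ratio had the same sign in every preparation in 13 genes. In 12 of them (24.5%) the ratio was above 0 in all 3 preparations, against 18% of all named genes. These were the 5 called genes with *Eif5*, *Eif2b1*, *Eif2b2*, *Eif3f*, *Eif4a1*, *Eif5a* and *Eif5a2*. Of these, *Eif3f* and *Eif5* were within 0.01 of 0 in preparation 3. *Eif2d* was below 0 in all 3. In 9 genes the replicating arrays all lay above the quiescent arrays, which held for 11.3% of all named genes. They were *Eif1ax*, *Eif1b*, *Eif2b2*, *Eif2b4*, *Eif3h*, *Eif3l*, *Eif4e2*, *Eif5a* and *Eif5a2*, with *Eif1ax* measured on 2 quiescent arrays. In 0 of the 49 genes did they all lie below, against 5.88% of all named genes.

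The arrays of the quiescent cells varied more than those of the replicating cells. The median SD over 3 arrays was 0.21 in replicating and 0.73 in quiescent cells for the family, and 0.22 and 0.68 for all named genes. The authors report more sorted cells and more extracted RNA for the quiescent than for the replicating fraction. The part of the RNA amount in the values was not tested. The quiescent array of preparation 2 stood furthest apart from the others over all probes, with a Pearson's r between 0.654 and 0.830 across probes. It held the lowest value of the 6 arrays for 31 of the 48 family members measured on it (64.6%), and for 39.3% of all named genes. In 24 of the 48 it lay at least 1 log2 unit below the mean of the other quiescent arrays, against 23.9% of all named genes. Feature Extraction marked 1583 spots as outliers on this array and between 252 and 299 on the others. Quiescent array 1 stood apart as well, to a lesser degree, with an r between 0.830 and 0.887. Pairs of arrays with neither of them gave 0.943 to 0.986. Quiescent array 1 held the lowest value for 27.1% of the 48 members and 14.1% of all named genes. Quiescent array 3 held the highest for 41.7% and 21.5%. Probes well above background made up 96.4% on quiescent arrays 1 and 2 and 80.8% to 87.3% on the others. The part of quiescent arrays 1 and 2 in the results was not tested.

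As checks of the sort, all 12 of 12 cell-cycle genes were higher in replicating β-cells, with a median log2 ratio of 2.77. Markers of other cells were present as well. All 10 fibroblast and stellate cell markers had a ratio above 0 and 4 passed the unadjusted p, with *Col6a3* at 3.06, and their summed level ranged from 14061 to 40638 on replicating and from 5132 to 6576 on quiescent arrays. Of the 8 alpha cell markers 5 lay above 0 and 3 passed (summed level 23702 to 91976 and 6692 to 20044), and of the 4 delta and PP cell markers all lay above 0 and 3 passed (5190 to 9842 and 2120 to 4068). Of 6 immune cell markers 6 lay above 0 and 2 passed (3625 to 5759 and 2263 to 4830). Of 7 acinar markers 5 lay above 0 and 2 passed, with a wide range within each group (7671 to 83122 and 3818 to 42313). Of 6 endothelial markers 3 and of 5 duct markers 0 lay above 0, and 0 of either list passed. Of the 11 β-cell markers found, 4 had a ratio above 0 and 1, *Mafa*, was lower at the unadjusted p (summed level 253909 to 322265 and 156270 to 354192). *Pnlip* and *Irx1* were not well above background on any replicating array, and the other defining markers were detected in both groups. In sorted pools a change in the share of a cell type and a change in RNA per cell cannot be told apart, and the part of other cells in the values of the initiation factors was not tested.

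The eIF3 complex, the largest of the factors, binds the small subunit and bridges it to the mRNA through eIF4G. Of its 13 genes 11 had a ratio above 0 and 2 were higher at the unadjusted p. Their median was 0.37, with 0.40, 0.91 and -0.13 in preparations 1, 2 and 3.

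*Eif3l*, a peripheral subunit, had the largest ratio of the family. Its log2 values on the replicating arrays of preparations 1, 2 and 3 were 11.01, 11.04 and 11.14. On the quiescent arrays they were 10.15, 7.48 and 10.50. The groups did not overlap, but the value of quiescent array 2 lay far below the other 5. The fitted ratio was 1.69 (SE 0.66), or 3.22-fold, past the unadjusted threshold of 0.05 by a narrow margin (95% interval 0.01 to 3.36, adjusted p = 0.475 by limma with Benjamini-Hochberg). The ratios in the preparations were 0.87, 3.56 and 0.64, and without preparation 2 the fitted ratio was 0.75 and no longer passed.

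*Eif3h* codes for a subunit with an MPN domain, a fold it shares with subunits of the proteasome lid. Its values were 12.11, 12.24 and 11.90 on the replicating and 11.02, 10.72 and 11.25 on the quiescent arrays. All replicating values lay above all quiescent values, and the spread within groups was small. The ratio was 1.09 (SE 0.34), or 2.12-fold, with a 95% interval from 0.22 to 1.95 (adjusted p = 0.475 in limma), and 1.09, 1.52 and 0.65 in the preparations. A second, dimmer probe of *Eif3h* gave 0.20 with 0.30, 0.85 and -0.53 in the preparations, and its groups overlapped. The sign in preparation 3 thus depended on the probe.

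The other 11 subunit genes of eIF3 did not pass. Their ratios ran from -0.15 for *Eif3b*, an RNA-binding core subunit, to 0.91 for *Eif3a*, the largest core subunit. *Eif3a* measured 12.12, 11.98 and 11.86 on the replicating and 11.62, 9.57 and 12.06 on the quiescent arrays. Only the quiescent value of preparation 2 stood clearly below the rest (adjusted p = 0.505 in limma). *Eif3m* had a like course, with preparation ratios of 0.39, 2.98 and -0.70. *Eif3b* went the other way in preparation 2, at -1.0 between 0.40 and 0.16. *Eif3e* at 0.70, *Eif3j* at 0.78, *Eif3f* at 0.37, *Eif3c* at 0.20, *Eif3i* at 0.17, *Eif3d* at 0.13, *Eif3g* at 0.01 and *Eif3k* at -0.09 made up the rest. Both probes of *Eif3i* are placed on chromosome 2 of rn4 by the files, whereas RefSeq has the gene on chromosome 5, so that their match to this gene is uncertain.

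Factors of start codon recognition and subunit joining were above 0 in all 7 genes, with a median of 0.91 and 0.48, 2.21 and -0.21 in the preparations. *Eif1b*, a close relative of *Eif1*, the factor that monitors base pairing at the start codon, was the gene of this group that passed. It measured 8.43, 8.69 and 8.42 on the replicating and 7.01, 6.47 and 8.12 on the quiescent arrays. The groups did not overlap, with the pair of preparation 3 closest together. The ratio was 1.31 (SE 0.46), or 2.47-fold, with a 95% interval from 0.14 to 2.48 (adjusted p = 0.475 in limma), and 1.42, 2.21 and 0.29 in the preparations.

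*Eif1* itself had the smallest ratio of the group, 0.31, with values of 15.17, 14.85 and 15.07 on the replicating and 14.86, 14.02 and 15.28 on the quiescent arrays. The groups overlapped (adjusted p = 0.678 in limma). *Eif5*, whose product triggers GTP hydrolysis by eIF2, had a ratio of 1.11 (SE 0.65, adjusted p = 0.494 in limma), which came from preparation 2 at 2.95 beside 0.37 and 0.01. Its 5 probes gave ratios between 0.28 and 1.56. *Eif1ad*, named for its likeness to eIF1A, was at 1.01 with 0.86, 3.05 and -0.89 in the preparations by its brightest probe, and at 1.48 with 1.40, 2.48 and 0.55 by its other one, so that the sign in preparation 3 depended on the probe. *Eif1ax*, which codes for eIF1A, was missing on quiescent array 2 because its spot was marked as an outlier. Fitted without that preparation, its ratio was 0.91 (95% interval -0.25 to 2.07, adjusted p = 0.475 in limma). *Eif1a* was at 0.57, of which preparation 2 gave 2.21 beside 0.29 and -0.81. *Eif5b*, the GTPase that joins the subunits, was at 0.39.

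The exchange factor eIF2B has 5 subunits. Of their genes 4 lay above 0 and 1 passed, with a median of 0.60 and 0.85, 1.25 and 0.16 in the preparations. Its median stayed above 0 in preparation 3, as did those of the cap-binding group and of the eIF5A and eIF6 group, of 3 genes each. *Eif2b4*, the δ regulatory subunit, measured 7.32, 8.75 and 7.74 on the replicating and 6.48, 7.32 and 6.79 on the quiescent arrays. Within each preparation the replicating value was higher, by 0.85, 1.43 and 0.95, most in preparation 2. Across preparations the lowest replicating and the highest quiescent value nearly met. The ratio was 1.07 (SE 0.32), or 2.11-fold, with a 95% interval from 0.26 to 1.89 (adjusted p = 0.475 in limma).

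*Eif2b1*, the α regulatory subunit, came next at 0.85 (95% interval -0.02 to 1.71, adjusted p = 0.475 in limma), with 0.89, 1.25 and 0.40 in the preparations. *Eif2b2*, the β subunit, was at 0.60 with 0.96, 0.68 and 0.16. The catalytic ε subunit, *Eif2b5*, measured 8.78, 8.07 and 9.02 on the replicating and 8.20, 6.48 and 9.68 on the quiescent arrays. Its ratio was 0.50 and turned to -0.67 in preparation 3 (adjusted p = 0.638 in limma). *Eif2b3*, the γ subunit, was at -0.12. So the regulatory α, β and δ subunits shared a direction in all 3 preparations and the catalytic γ and ε subunits did not, a difference that was not tested.

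The genes of eIF2 and of the other tRNA carriers showed no call, and 4 of 6 lay above 0 with a median of 0.41. *Eif2s1*, the α subunit that the stress kinases phosphorylate, measured 12.53, 12.70 and 12.31 on the replicating and 12.02, 11.61 and 12.68 on the quiescent arrays. The groups overlapped, and the ratio of 0.41 (adjusted p = 0.630 in limma) had a 95% interval from -0.61 to 1.43. *Eif2s3y*, the Y-linked γ subunit, was highest at 0.81 and *Eif2s3x*, its X-linked partner, was at 0.40, with 2.78 and 2.08 in preparation 2 and -0.77 and -0.78 in preparation 3. *Eif2a*, an alternative tRNA carrier, was at 0.57. *Eif2d*, which works in reinitiation and recycling, was at -0.50 with -0.02, -0.99 and -0.48, but its dimmer probe gave 0.98. *Eif2s2*, the β subunit, was at -0.09 by its brightest probe and 1.51 by its other one.

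Among the cap-binding proteins, the genes went different ways. *Eif4e2* codes for 4EHP, a relative of eIF4E that binds the cap without binding eIF4G and is known as a repressor of translation. Its values were 12.89, 12.52 and 12.56 on the replicating and 11.88, 11.78 and 11.80 on the quiescent arrays. No other called gene had quiescent values so close together, and the groups did not overlap. The ratio was 0.83 (SE 0.31), or 1.78-fold, with a 95% interval from 0.05 to 1.61 (adjusted p = 0.475 in limma), and 1.01, 0.74 and 0.76 in the preparations. The ratio stayed between 0.70 and 1.11 under the 14 alternatives, but it missed the unadjusted threshold in 8 of them, the most of the 5 called genes: with an offset of 0, either 75th percentile scaling, cyclic loess, the filter on dim probes and each preparation left out.

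*Eif4e*, the main cap-binding protein, had the lowest ratio of the family. It measured 10.67, 10.73 and 11.20 on the replicating and 11.70, 12.13 and 11.04 on the quiescent arrays. The quiescent values were higher in preparations 1 and 2 and the values of preparation 3 nearly equal. The ratio was -0.75 (95% interval -1.82 to 0.32, adjusted p = 0.487 in limma), with -1.03, -1.39 and 0.16 in the preparations. Without preparation 3 it was -1.21 and passed the unadjusted threshold. The other 2 of its 3 probes gave -0.27 and 1.16, so that the direction depended on the probe. *Eif4e3* was at -0.10 and was well above background on 2 of the 3 replicating arrays.

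**Figure D2:**
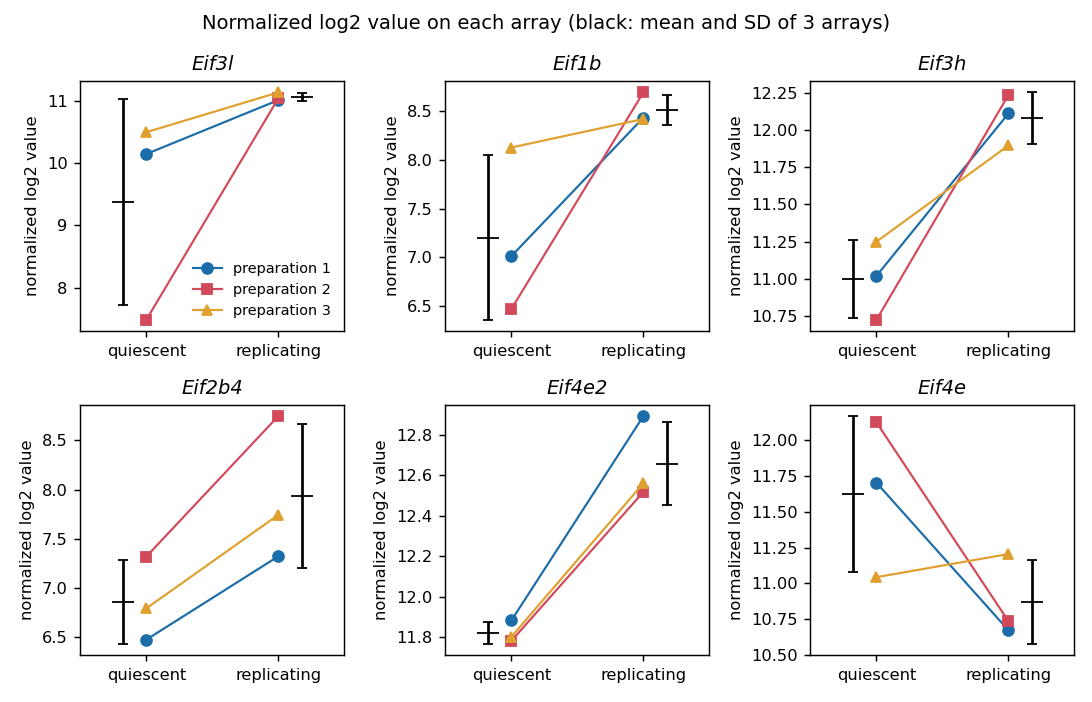
Normalized log2 value (vertical axis, scaled to each gene) of the 5 genes with an unadjusted p of at most 0.05 and of *Eif4e* on the quiescent and replicating arrays, with lines joining the arrays of a preparation and the mean and SD of 3 arrays in black. *Eif4e2* shows 3 nearly parallel lines, and *Eif2b4* rises in each preparation and most in preparation 2. The line of preparation 2 sets the slope for *Eif3l*.

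The probes of *Eif3l*, *Eif1b*, *Eif2b4*, *Eif4e2* and *Eif4e* are printed because the ratios rest on them, with *Eif3b* as a contrast of high G and C content. Capitals mark G and C bases, and the positions are those of the files on rn4, some of them spanning an intron.
*Eif3l* (chr7:117067876-117067935, + strand): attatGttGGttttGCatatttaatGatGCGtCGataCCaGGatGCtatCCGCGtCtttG
*Eif1b* (chr8:125500937-125501263, + strand): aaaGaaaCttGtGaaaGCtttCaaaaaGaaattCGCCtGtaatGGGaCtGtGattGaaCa
*Eif2b4* (chr6:25163070-25163129, + strand): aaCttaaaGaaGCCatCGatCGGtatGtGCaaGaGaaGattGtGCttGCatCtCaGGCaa
*Eif4e2* (chr9:86034139-86034290, + strand): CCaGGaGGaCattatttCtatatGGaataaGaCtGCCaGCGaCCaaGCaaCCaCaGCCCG
*Eif4e* (chr2:236102952-236103011, + strand): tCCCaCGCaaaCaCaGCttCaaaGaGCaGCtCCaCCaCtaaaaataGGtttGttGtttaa
*Eif3b* (chr12:14668098-14668157, - strand): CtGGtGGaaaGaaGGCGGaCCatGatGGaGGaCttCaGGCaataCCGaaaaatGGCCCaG
Their G and C content was 40% for *Eif3l*, 35% for *Eif1b*, 43.3% for *Eif2b4*, 50% for *Eif4e2*, 41.7% for *Eif4e* and 53.3% for *Eif3b*.

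The base composition of the probes went along with the ratios. Across the 48 genes measured, the difference of quiescent array 2 from the mean of the other quiescent arrays was correlated with the probe's share of G and C bases, with a Spearman's rho of 0.51, and over all named genes rho was 0.26. Among the 16 family probes with at most 35% G and C the median ratio was 2.21 in preparation 2, 0.59 in preparation 1 and -0.33 in preparation 3. Among the 6 probes above 45% it was -0.25, 0.30 and -0.02. In preparation 2 the medians of all named genes followed the same order over a smaller range, from 0.70 to -0.35. In preparation 1 they fell as well, from 0.47 to -0.15, and in preparation 3 they rose, from -0.17 to 0.05. Between the ratio and the share of G and C bases, rho in preparations 1, 2 and 3 was -0.32, -0.57 and 0.33 in the family. Over all named genes it was -0.28, -0.26 and 0.22. The probes share the array and its normalization, and genes are not independent replicates. The family's probes held a median of 40% G and C against 43.3% for all named genes. With the composition evened out on each array, an alternative chosen after seeing the data, the family's median was 0.53, 6 genes were higher and all 5 called genes were among them, while the median of all named genes was 0.094 and 7.92% of them were higher.

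**Figure D3:**
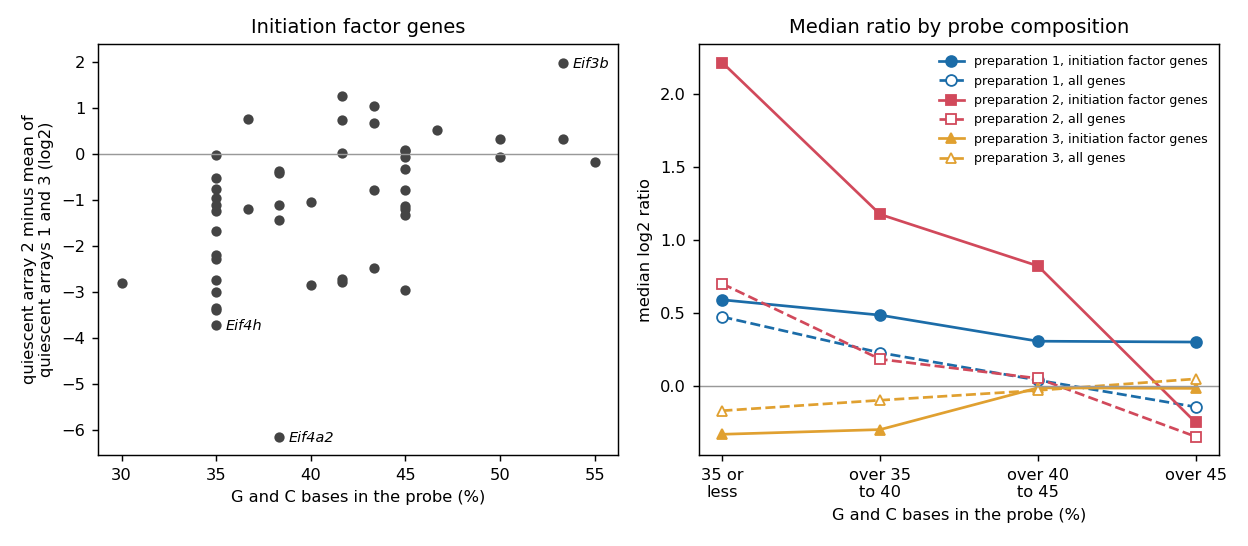
Left, the log2 value on quiescent array 2 minus the mean of the other 2 quiescent arrays against the G and C content (%) of the probe, 1 point per initiation factor gene. Right, the median log2 ratio in each preparation by G and C content for the initiation factor genes (filled, solid) and all named genes (open, dashed); in preparation 2 the family's median falls from 2.21 to -0.25.

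The scaffold and helicase genes were above 0 in 7 of 7, with a median of 0.74 and 0.35, 2.06 and -0.25 in the preparations, and 0 passed. *Eif4a2*, one of the paralogous eIF4A helicases, had the largest ratio of the group and the widest spread of the family. It measured 11.98, 11.57 and 11.71 on the replicating and 11.92, 6.28 and 12.92 on the quiescent arrays. Apart from quiescent array 2 the groups were interleaved. The ratio of 1.38 (SE 1.28, adjusted p = 0.611 in limma) came with 0.05, 5.29 and -1.21 in the preparations, and without preparation 2 it was -0.58. Its other, dimmer probe gave 1.84 with 1.45, 3.63 and 0.43, with all replicating values above all quiescent values.

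*Eif4a1*, the main helicase, measured 15.78, 15.80 and 16.15 on the replicating and 15.25, 15.64 and 15.86 on the quiescent arrays. It was higher in each preparation by 0.53, 0.15 and 0.29, while the groups overlapped. The ratio was 0.32 (SE 0.31, adjusted p = 0.623 in limma). *Eif4h*, a helicase cofactor, was at 1.29 with 0.80, 3.46 and -0.39 in the preparations. *Eif4a3*, a helicase of the exon junction complex, was at 1.11 with 0.35, 3.01 and -0.03, and *Eif4b*, the other cofactor, at 0.48. The scaffold relatives *Eif4g2* and *Eif4g3* were at 0.74 and 0.55. Preparation 2 gave 2.06 for *Eif4g2* beside 0.31 and -0.16, and 1.77 for *Eif4g3* beside 0.12 and -0.24. The 5 probes of *Eif4g2* lay between 0.74 and 1.73. *Eif4g1* was not a gene name on the array. A probe described as *Eif4g1* under a transcript identifier, outside the rule, had a ratio of -0.31 (adjusted p = 0.664 in limma).

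The 4E-binding proteins, which compete with eIF4G for eIF4E, and the eIF4E transporter gave 0 calls. *Eif4ebp1* measured 11.27, 11.87 and 11.48 on the replicating and 11.20, 12.17 and 12.10 on the quiescent arrays. The groups overlapped and the ratio was -0.29 (SE 0.33, adjusted p = 0.678 in limma). *Eif4ebp2* was at 1.23 with 1.35, 2.62 and -0.29 in the preparations, *Eif4ebp3* at 0.44 and the transporter *Eif4enif1* at 0.13. The arrays measure mRNA and give no account of the phosphorylation that sets the activity of these proteins.

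*Eif5a* codes for the hypusine-carrying factor that helps ribosomes through difficult peptide bonds, and *Eif5a2* for its paralog. *Eif5a* measured 11.25, 11.41 and 11.49 on the replicating and 11.00, 9.82 and 10.88 on the quiescent arrays. *Eif5a2* measured 7.73, 7.59 and 7.73 on the replicating and 7.06, 6.35 and 7.53 on the quiescent arrays. In both genes the groups did not overlap. The ratios were 0.82 (95% interval -0.18 to 1.82) and 0.71 (-0.20 to 1.61), neither past the unadjusted threshold, with an adjusted p = 0.475 for each in limma. *Eif6*, which keeps the large subunit from joining too early, was at -0.01 with a 95% interval from -0.82 to 0.79 in limma. The pseudogene *Eif6-ps1* was at -0.13.

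Genes with several probes showed how far a ratio depended on the probe. Of the 49 genes 19 had several probes and in 4 of these, *Eif2d*, *Eif2s2*, *Eif3k* and *Eif4e*, they had opposite signs. The brightest probe had the lowest ratio of its gene in 15 of the 19 genes (78.9%), and in 51.7% of the 5437 named genes with several probes. Of the 27 probes that were not the brightest of their gene 4 were higher at the unadjusted p (14.8%), against 7.02% of such probes of all named genes. They belong to *Eif1ad*, *Eif4a1*, *Eif4a2* and *Eif5*, whose brightest probes did not pass. With a median over each gene's probes in place of the brightest, the family's median rose from 0.55 to 0.66 and 4 of the 5 calls were kept, *Eif3h* being lost.

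Neighbouring steps of translation were read from lists of other genes. Of 16 partners and modifiers of initiation 13 lay above 0 with a median of 0.52, and 0 passed in either direction. The poly(A)-binding protein gene *Pabpc1* was at 0.55. Of 14 genes of elongation, termination and recycling 13 lay above 0 with a median of 0.49, and 0 passed. *Eef2*, the translocase of elongation, was at 0.33. Of 20 cytosolic aminoacyl-tRNA synthetase genes 18 lay above 0 with a median of 0.35, and *Vars*, for valine, was the call at 1.33 (adjusted p = 0.475 in limma). In preparations 1, 2 and 3 the medians were 0.57, 0.87 and -0.17 for the partners, 0.47, 0.83 and -0.03 for elongation and 0.40, 1.37 and -0.31 for the synthetases. As in the initiation factors, preparation 2 was highest and preparation 3 below 0.

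The kinases that act on the factors were measured as well. Of 17 mTORC1 genes 14 lay above 0 with a median of 0.34 (0.53, 1.15 and -0.12 in the preparations), and *Rheb*, the GTPase that activates the complex, was higher at 0.93 (SE 0.34, adjusted p = 0.475 in limma). *Mtor* was at 0.75 and did not pass (adjusted p = 0.475 in limma). Of 14 genes of the eIF2 kinases and the integrated stress response 14 lay above 0 with a median of 0.45 (0.31, 1.25 and -0.11 in the preparations). *Eif2ak2*, the kinase PKR that responds to double-stranded RNA, was higher at 1.29 (SE 0.36, adjusted p = 0.475 in limma), with 1.24, 1.88 and 0.76 in the preparations. *Eif2ak3*, the kinase PERK, measured 11.13, 11.36 and 11.07 on the replicating and 9.89, 6.95 and 11.03 on the quiescent arrays. Its ratio was 1.89 (SE 0.87, adjusted p = 0.475 in limma), not past the unadjusted threshold, of which preparation 2 gave 4.41. *Eif2ak4*, the amino acid sensor GCN2, was at 0.38, and the response genes *Atf4* and *Ddit3* were at 0.97 and 0.17, *Atf4* with 0.24, 2.77 and -0.10 in the preparations. Over the 5 lists 3 of 81 genes (3.7%) were higher, below the 6.59% of all named genes, and 0 passed the adjusted p in limma.

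Promoter windows of 300 bases from RefSeq (GRCr8), most of each upstream of the start site, were at hand for 43 of the 49 genes. The letters CCGGAA, core of the sites of ETS factors, or their reverse complement stood in 22 of the 43 (51.2%) and in those of 16.5% of 27457 genes. These 27457 are all RefSeq genes with a symbol and a window, on the array or not, and differ from the named genes used elsewhere. The letters CACGTG, the E-box that MYC proteins bind, stood in 8 (18.6%) against 7.08%, and CCAAT on either strand in 15 (34.9%) against 39.6%. Of the called genes, *Eif1b* held the first 2 motifs and *Eif4e2* the first, *Eif2b4* and *Eif3l* held none of the 3, and *Eif3h* had no window. *Eif4e*, which was not called, held the E-box. They are shown in 30-base windows with the motif in capitals.
*Eif1b*, CCGGAA (chr8:129080971-129081000, + strand): tcgccgttgcacCCGGAAgtgcctccaccc
*Eif1b*, CACGTG (chr8:129081092-129081121, + strand): ggaacgtgtggtCACGTGgcggcggcgcgc
*Eif4e2*, CCGGAA (chr9:95333965-95333994, + strand): gcgccccgccaaCCGGAAgtagccgggccc
*Eif4e*, CACGTG (chr2:229740504-229740533, + strand): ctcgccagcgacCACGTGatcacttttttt
A match is a run of letters in a window and no measured binding. The called genes and those that were not called both held them, *Eif5a* and *Eif3b* among the 8 with the E-box and *Eif6* and *Eif2d* among the 22 with CCGGAA.

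With 3 pairs of arrays the calls depended on each preparation, and a fit with a preparation left out rests on 4 arrays. Without preparation 1 or preparation 2, 0 of the 49 genes were higher at the unadjusted p in limma, while 1.67% and 4.98% of all named genes were. Without preparation 3, 9 genes (18.4%) were higher and 14.4% of all named genes were, and 1, *Eif4e*, was lower. Of the 5 called genes, *Eif2b4*, *Eif3h*, *Eif3l* and *Eif1b* were among these 9. With Feature Extraction's own processed signal 0 of the 49 were higher and 2.17% of all named genes were. With normexp values scaled to the 75th percentile *Eif3h* and *Eif3l* were higher, with 5.24% of all named genes.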

How the data were processed

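Labelled cDNA from 6 samples was hybridized to Agilent rat arrays after whole transcriptome amplification of the RNA. The authors deposited the intensity of each spot as read by Feature Extraction 10.7.3.1, and normalized log2 values per spot, made with normexp and quantile normalization. The log2 values were used, matched to spots by feature number. Recomputing them with an offset of 50 gave differences of at most 0.000245, which settles the offset. All arrays lay on a single slide with a single scan, so no slide block was fitted, and 0 value columns were without a sample.

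Outlier spots were treated as missing, and a probe's spots were averaged. limma 3.58.1 (R 4.3.3) was fitted to 45598 probes with the preparation as a block. The pairing comes from the labels and methods, and the within-group deviations of the paired arrays correlated across probes at 0.0561, 0.242 and 0.258. Benjamini-Hochberg adjustment was made over all probes. A gene is its brightest probe. No filter on low values was used, so all 49 genes were tested, 47 of them well above background on all 6 arrays. A named gene is a name found in RefSeq (GRCr8). The number of arrays limits the precision. The p-values rest on the spread between 3 preparations and on a variance that limma draws from all probes. Where the 3 ratios of a gene lie close together, as for *Eif4e2*, most of the SE comes from that shared variance. The text names genes with an unadjusted p of at most 0.05, the ends of each role group, genes with disagreeing probes and the core factors. Members, lists and rules were chosen with earlier results of these data known. The fit was tested on simulated data with independent noise, of equal size on all 6 arrays of a probe. The larger spread of the quiescent arrays was not simulated, so that test does not cover it.

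The alternatives were log2 values computed from the scanner files, an offset of 0, 75th percentile scaling or cyclic loess of normexp values, Feature Extraction's processed signal, outlier spots kept, a filter on dim probes, a fit without the block, a trended variance, a median over each gene's probes, each preparation left out, and a correction for probe G and C content. The qPCR and imaging experiments were not analysed here. The sequence of the *Eif3h* probe is not reported here.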

Additional observations from a re-analysis of the deposited data

How the results depend on the processing

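Of the 5 genes called higher, 0 changed sign under any alternative, and 0 of the 49 passed the adjusted p under any. The 5 lay above 0 in every preparation, so that leaving a preparation out could not turn their sign. The count of 5 became 2 with normexp values scaled to the 75th percentile, 0 with the processed signal, and 0 to 9 with a preparation left out, when the count lower was 0 to 1; under the other alternatives it lay between 4 and 6. Without the replicate block 4 of the 5 calls were kept, *Eif3l* being lost. With an offset of 0 *Eif3h* and *Eif4e2* were lost and *Eif2b1* was added, with cyclic loess *Eif2b1* took the place of *Eif4e2*, and the filter on dim probes lost *Eif4e2*. The family's median lay between 0.12 and 0.94, above that of all named genes under every alternative; that of all named genes moved from 0.02 to -0.25 with 75th percentile scaling and to -0.41 with the processed signal. Genes of the 5 neighbouring lists called higher, pooled over the lists after the counts of each had been seen, numbered 3 of 81 (3.7%, against 6.59% of all named genes), and 7 with cyclic loess, 0 with the processed signal, 5 without the block, 7 with a variance trend, 6 with the G and C correction and 0 to 13 with a preparation left out, when the share of all named genes ran from 1.67% to 14.4%. Probes past the adjusted p numbered 0 of 45598, while 4379 passed the unadjusted p, and 719 with 75th percentile scaling, 204 with cyclic loess, 99 without the block, 61 with a variance trend, 38 with the G and C correction and 0 to 84 with a preparation left out. Probes higher at the unadjusted p and a log2 ratio of 1 numbered 2023, and 662 with the processed signal and 518 to 5112 with a preparation left out. The 1905 lower probes became 5862 with 75th percentile scaling (1596 higher), 3193 with the processed signal, 878 without the block and 63 to 5633 with a preparation left out. The cause of these differences was not tested.

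In 24 genes that were not called the sign of the ratio depended on a setting. Where a setting changed the values, the brightest probe of a gene was chosen anew, so a changed sign can come with a change of probe. With normexp values scaled to the 75th percentile the ratio turned to -0.12 for *Eif4ebp3*, 0.078 for *Eif2s2*, -0.14 for *Eif2s3x*, -0.012 for *Eif2b5*, -0.31 for *Eif3d* and 0.10 for *Eif6*. With cyclic loess it turned to 0.11 for *Eif4e3*, -0.032 for *Eif4enif1*, -0.019 for *Eif2s3x*, -0.0071 for *Eif3d*, -0.068 for *Eif3g*, -0.0063 for *Eif3i*, -0.031 for *Eif4a1* and -0.025 for *Eif1a*. With Feature Extraction's processed signal it turned to -0.13 for *Eif4ebp3*, 0.080 for *Eif2s2*, -0.13 for *Eif2s3x*, -0.026 for *Eif2b5*, -0.41 for *Eif3d*, 0.023 for *Eif3k* and 0.097 for *Eif6*. With the median over probes it turned to 0.0086 for *Eif4e*, 0.24 for *Eif2d* and 0.71 for *Eif2s2*. With the G and C correction, fitted with the replicate block, it turned to 0.056 for *Eif2s2*, 0.025 for *Eif2b3*, 0.21 for *Eif3b*, -0.012 for *Eif3i*, 0.060 for *Eif3k*, 0.26 for *Eif6* and 0.018 for *Eif6-ps1*. For *Eif2d* it turned to 0.80, a value of its other probe, which became the brightest and was at 0.98 without the correction. With each preparation left out in turn, the ratio changed sign within ranges of -0.28 to 0.056 for *Eif4e3*, -0.13 to 1.04 for *Eif4ebp3*, -0.20 to 0.47 for *Eif4enif1*, -0.17 to 0.027 for *Eif2s2*, -0.44 to 0.99 for *Eif2s3x*, -0.17 to 1.60 for *Eif2s3y*, -0.57 to 0.15 for *Eif2b3*, -0.040 to 1.09 for *Eif2b5*, -0.42 to 0.28 for *Eif3b*, -0.059 to 0.44 for *Eif3c*, -0.30 to 0.46 for *Eif3g*, -0.16 to 1.68 for *Eif3m*, -0.58 to 2.67 for *Eif4a2*, -0.064 to 0.94 for *Eif4g3*, -0.17 to 0.077 for *Eif6*, -0.27 to 0.0099 for *Eif6-ps1*, -0.26 to 1.25 for *Eif1a* and -0.015 to 1.96 for *Eif1ad*. The G and C correction was chosen after seeing the data.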
